A study of Mus musculus with 6 samples.

Results

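The genes described here are 10 genes best known from germ cells and meiosis, Tex14, Psma8, Rpl39l, Dazl, Ddx4, Mael, Sycp1, Sycp3, Stra8 and Tex101, measured after depletion of the mRNA 3′ end processing factor Fip1 in mouse embryonic stem cells. They were chosen by symbol, with the brightest probe set kept for a gene, and all 10 were measured, out of 15267 genes with a named probe set. Each gene had 1 probe set. The study took cells of the line E14Tg2a.4, grown on gelatin in the medium M15, and compared 2 siRNAs against Fip1 with a mock transfection. The group siFip1-2 received Fip1L1 siRNA 2 (2 arrays), the group siFip1-3 received Fip1L1 siRNA 3 (2 arrays), and the group Mock received the transfection reagent Lipofectamine 2000 without any siRNA (2 arrays), and a non-targeting siRNA is in none of the groups used here. RNA was taken on day 4 after transfection and hybridised to Affymetrix whole mouse genome arrays, and values are deposited log2 values made with RMA, a method that summarises the probes of a gene into 1 value. The labels do not say whether replicates came from separate cultures, so p-values measure the spread between these arrays, which may be partly technical.

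Germ cells carry a gene programme that most other cells keep silent. Mouse embryonic stem cells are an exception in part: some germline genes are transcribed in them, while many promoters of the programme are bound by a repressive complex that holds E2F6 and the E-box binding pair MGA and MAX, or carry DNA methylation. Products of the programme build the intercellular bridges between dividing germ cells, run the small RNA defence against transposons, switch cells into meiosis and hold homologous chromosomes together in the synaptonemal complex.

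The promoters of Tex14, Sycp3 and Dazl, whose siRNA and Mock arrays did not overlap, and of Ddx4 are shown because they carry, or do not carry, the 2 motifs bound by that repressive complex. Each is the 250 bases before the start site of the gene's RefSeq promoter entry (GRCm38.p6), 5′ to 3′ on the strand of the gene. For Tex14 and Ddx4 that start lies inside the RefSeq span of the gene, which begins at 87405013 for Tex14 and reaches 112652633 for Ddx4. Capitals mark CACGTG (the E-box, the same on both strands) and GCGGGA or its complement TCCCGC (an E2F-type site). The windows are chr11:87404815-87405064 on the plus strand for Tex14, chr10:88459337-88459586 on the plus strand for Sycp3, chr17:50293621-50293870 on the minus strand for Dazl and chr13:112652311-112652560 on the minus strand for Ddx4.
Tex14: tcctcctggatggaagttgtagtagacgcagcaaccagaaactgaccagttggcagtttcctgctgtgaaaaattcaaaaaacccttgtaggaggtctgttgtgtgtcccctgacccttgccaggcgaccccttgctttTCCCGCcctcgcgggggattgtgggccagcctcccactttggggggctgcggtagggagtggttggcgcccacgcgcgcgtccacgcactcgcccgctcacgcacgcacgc
Sycp3: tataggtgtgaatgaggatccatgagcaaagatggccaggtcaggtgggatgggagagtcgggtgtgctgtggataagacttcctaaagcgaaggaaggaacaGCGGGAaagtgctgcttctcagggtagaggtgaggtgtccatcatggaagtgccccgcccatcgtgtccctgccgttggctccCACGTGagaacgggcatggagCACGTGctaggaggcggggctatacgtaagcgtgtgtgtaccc
Dazl: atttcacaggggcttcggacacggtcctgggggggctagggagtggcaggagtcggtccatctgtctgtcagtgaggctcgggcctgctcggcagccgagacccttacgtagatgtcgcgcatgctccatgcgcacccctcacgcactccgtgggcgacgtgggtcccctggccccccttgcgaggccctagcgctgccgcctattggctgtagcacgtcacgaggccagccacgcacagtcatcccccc
Ddx4: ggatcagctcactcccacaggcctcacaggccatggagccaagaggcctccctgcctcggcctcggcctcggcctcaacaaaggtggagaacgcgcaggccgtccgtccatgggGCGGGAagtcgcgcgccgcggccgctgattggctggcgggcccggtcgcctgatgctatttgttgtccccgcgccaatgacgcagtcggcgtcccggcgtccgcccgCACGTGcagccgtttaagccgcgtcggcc

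Over the whole RefSeq window of 300 bases, which adds 50 bases after the start, 9 of the 10 genes had an entry. Distances refer to the start of that entry, which for Tex14, Ddx4, Rpl39l and Stra8 lies inside the RefSeq span of the gene. The E-box was found in 4 of these 9 windows (Ddx4, Mael, Sycp1 and Sycp3), and in 9.29% of the windows of 12273 genes tested that have an entry. The E2F-type site was found in 5 of 9 (the same 4 and Tex14), against 31.0% of the 12273. Both motifs stood together in 4 of 9, against 3.39%. Sycp3 has E-boxes that begin 64 and 43 bases before the start and an E2F-type site 147 bases before it. In the Ddx4 window the E-box begins 29 bases and the E2F-type site 136 bases before the start, and in that of Tex14 the E2F-type site begins 111 bases before it. The windows of Dazl, Stra8, Rpl39l and Tex101 hold neither string of letters. The windows hold 10 (Stra8) to 38 (Ddx4) CpG dinucleotides, with 28 in Dazl and 20 in Tex14, beside a median of 18 over the genes tested. A match of letters is a description and not a measured binding site.

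Fip1l1, the targeted gene, had log2 values of 8.26 and 7.79 with siFip1-2 and 8.39 and 7.86 with siFip1-3, against 9.65 and 9.74 in Mock (replicates 1 and 2, as throughout). The array medians lay between 6.08 and 6.12, and pairs of arrays correlated at 0.987 to 0.997 over all probe sets. The 10 markers of embryonic stem cells that were listed, Pou5f1, Sox2 and Nanog among them, averaged 12.1 to 12.3 on the siRNA arrays and 12.2 to 12.3 on the Mock arrays. None of them passed the test described below in limma. An unadjusted p under 0.05 for both siRNAs against Mock was found for 1, beside 24.35% of all genes. With the replicate number as a block, Nanog was higher by 0.22 and Tdgf1 differed by -0.29 (limma adjusted p = 0.0312 and 0.0222). Of 10 fibroblast markers, 7 were below the 25th percentile of every array, and the log2 of the list's summed level was 7.86 to 8.20 with siRNA and 7.82 to 8.04 in Mock. That of 10 markers of gonadal somatic cells was 8.30 to 8.46 with siRNA and 8.24 to 8.31 in Mock, with 0 of the 10 past limma's test, 2 at an unadjusted p under 0.05 and 1, Dhh, higher with the block. That of 10 markers of differentiating cells was 10.5 to 10.8 with siRNA and 10.5 and 9.77 in Mock, with 1 of the 10, Eomes, higher (4 higher and 1 lower with the block). The 1 measured marker of the 2-cell-like state, Zfp352, was at 8.03 to 8.14 with siRNA and 6.45 and 5.99 in Mock. The part of these markers in the results was not tested.

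The 10 genes were chosen with earlier results of these arrays in view. The differences between siRNA and Mock arrays are therefore given as a description, with no p-value for any of the 10, and the numbers called are set beside the share of all genes called. On that description 6 of the 10 genes had siRNA arrays that did not overlap the Mock arrays, 5 lower (Tex14, Psma8, Rpl39l, Sycp3 and Tex101) and 1 higher (Dazl), where 33.5% of all genes tested did not overlap, 18.4% lower and 15.2% higher. A linear model of limma fitted to all genes, with p-values adjusted by Benjamini-Hochberg and a threshold of 0.05, called 4 of the 10 lower (Tex14, Psma8, Rpl39l and Sycp3) and 1 higher (Dazl) for the mean of both siRNAs minus Mock, where it called 10.3% of 15267 genes, 6.19% lower and 4.15% higher. With the replicate number as a block, Ddx4 was also called, which made 2 higher and 4 lower, where 20.2% of all genes were called, 8.43% higher and 11.7% lower. For siFip1-2 alone 4 of the 10 were called lower and 0 higher (6.92% of all genes, 4.01% lower and 2.91% higher), and for siFip1-3 alone 3 were lower and 0 higher (5.74%, 3.48% lower and 2.26% higher). With the block each siRNA alone gave 2 higher and 4 lower of the 10, where 17.2% of all genes were called for siFip1-2 and 14.1% for siFip1-3. Without Mock replicate 2, which leaves 1 array in that group, fewer of the 10 and also fewer of all genes were called. Nothing is read from these counts, since those contrasts were known when the genes were chosen. In bulk RNA, fewer cells that express a gene and less RNA per cell cannot be told apart. The median log2 difference was -0.25 over the 10 genes and -0.00 over all genes.

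**Figure D1:**
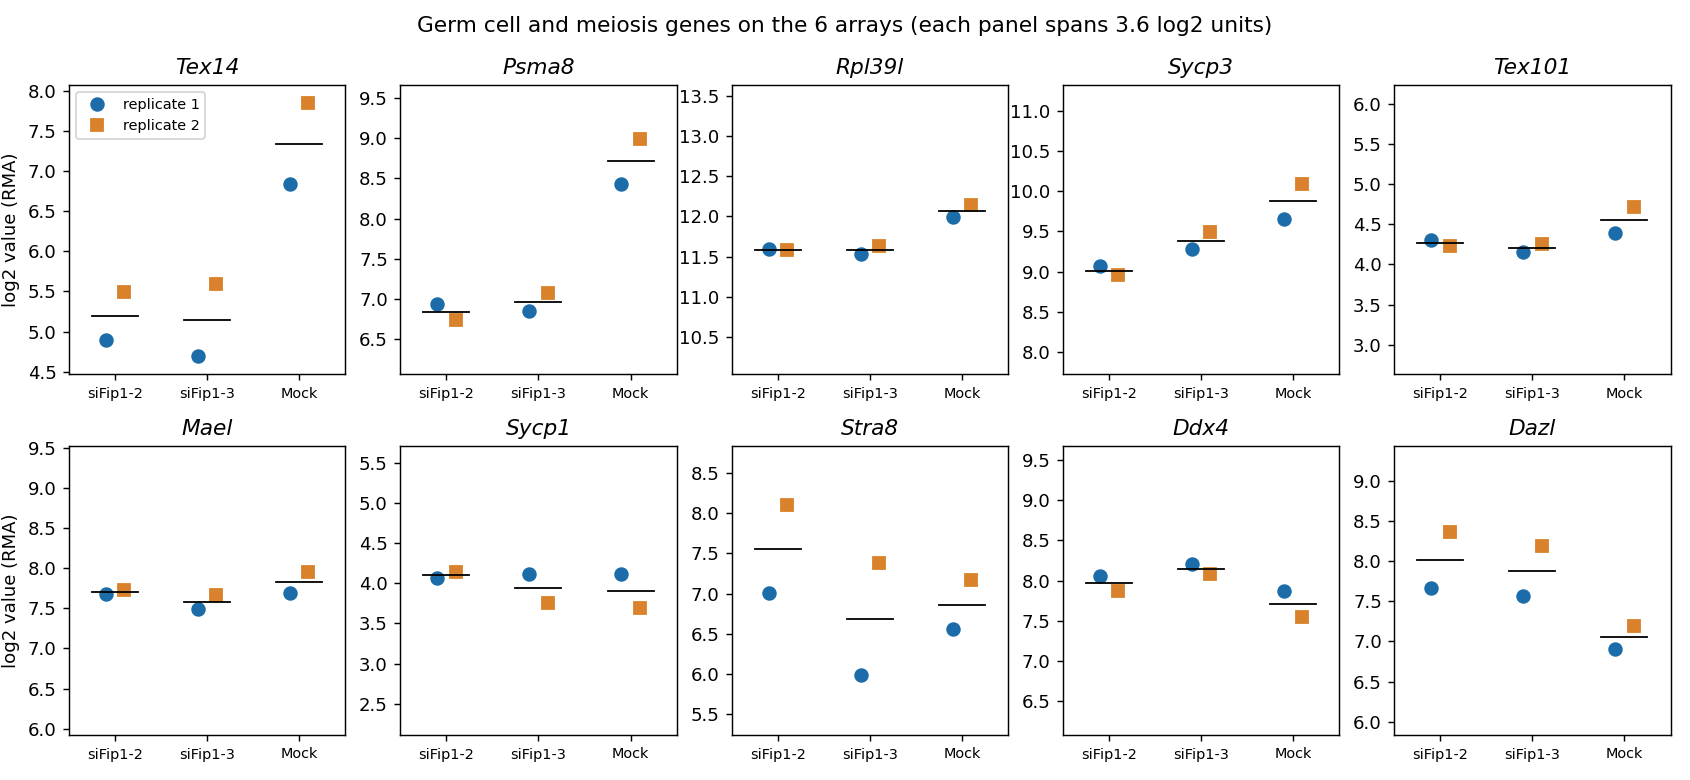
Log2 values (RMA) of the 10 genes on the 6 arrays, 1 panel for each gene, with siFip1-2 and siFip1-3 left of Mock, circles for replicate 1, squares for replicate 2 and a line at the mean of each group. Tex14 and Psma8 are far lower on all 4 siRNA arrays than in Mock, Dazl is higher on all 4, and in Stra8, Tex14 and Dazl replicate 2 lies above replicate 1 in every group.

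Tex14 had the largest difference of the 10. It encodes a protein of the intercellular bridges that keep dividing germ cells joined. Its log2 value was 4.89 and 5.50 with siFip1-2 and 4.70 and 5.59 with siFip1-3, against 6.84 and 7.84 in Mock. All 4 siRNA arrays were below both Mock arrays, and in each group replicate 2 was the higher array. The difference of both siRNAs from Mock was -2.17 (SE 0.331), which is 4.50-fold lower and left 22.2% of the Mock level. It ranked 2nd from the lowest among the differences of all genes. Set against Mock within a replicate number, 26.0% remained with siFip1-2 and 22.7% with siFip1-3 in replicate 1, and 19.7% and 21.0% in replicate 2. The difference was -2.67 without Mock replicate 1 and -1.67 without Mock replicate 2.

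Psma8 encodes a 20S proteasome subunit used in place of Psma7 in spermatocytes. Its value was 6.93 and 6.74 with siFip1-2 and 6.84 and 7.07 with siFip1-3, against 8.43 and 8.99 in Mock. The siRNA arrays lay close together and well under both Mock arrays. The difference was -1.82 (SE 0.169, 3.52-fold lower, 28.4% of Mock), the 8th from the lowest of all genes. Psma7, its partner in other cells, was at 11.6 and 11.5 with siFip1-2 and 11.7 and 11.6 with siFip1-3, against 11.5 and 11.4 in Mock. The difference of Psma7 was 0.13 (SE 0.0754) and did not pass (limma adjusted p = 0.365).

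Rpl39l encodes a paralogue of the large ribosomal subunit protein Rpl39 with testis-biased expression. Its value was 11.593 and 11.579 with siFip1-2 and 11.536 and 11.627 with siFip1-3, against 11.996 and 12.138 in Mock. The groups did not overlap, but the difference was small beside those of Tex14 and Psma8, at -0.48 (SE 0.0754, 1.40-fold lower). Its 4 differences within replicate numbers ran from -0.56 to -0.40. Without Mock replicate 2 it was -0.41. Rpl39 itself was not analysed here.

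Among the proteins of the synaptonemal complex, Sycp3 forms the axial elements and Sycp1 the filaments that bridge them. Sycp3 was at 9.07 and 8.96 with siFip1-2 and 9.28 and 9.49 with siFip1-3, against 9.66 and 10.1 in Mock. Every siRNA array was below both Mock arrays, with siFip1-2 the lower of the siRNA groups. The difference was -0.67 (SE 0.134, 1.59-fold lower), or -0.89 without Mock replicate 1 and -0.46 without Mock replicate 2. Within replicates, 66.5% of the Mock level remained with siFip1-2 and 77.1% with siFip1-3 in replicate 1, and 45.7% and 66.1% in replicate 2. Sycp1 was at 4.07 and 4.14 with siFip1-2 and 4.12 and 3.76 with siFip1-3, against 4.12 and 3.69 in Mock. The groups overlapped, and all 6 values were below the 25th percentile of their array (4.16 to 4.26), so without detection calls its expression in these cells is uncertain. The difference of Sycp1 was 0.11 (SE 0.152, 95% interval -0.23 to 0.46).

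Dazl was the gene of the 10 whose siRNA arrays all lay above the Mock arrays. It encodes an RNA-binding protein that germ cells need to develop and to enter meiosis. Its value was 7.67 and 8.37 with siFip1-2 and 7.57 and 8.19 with siFip1-3, against 6.90 and 7.20 in Mock. Replicate 2 was the higher array in each group. The mean difference was 0.90 (SE 0.230), which is 1.86-fold higher and the 157th from the highest of all genes. Within replicates it was at 170.0% and 158.6% of Mock in replicate 1 and at 225.1% and 198.9% in replicate 2, siFip1-2 before siFip1-3. The difference was 0.72 to 1.07 over the alternatives tried. In the fit without the block Dazl was not called for either siRNA alone. For both siRNAs its call ended without a variance trend and without siFip1-2 replicate 2, siFip1-3 replicate 2, Mock replicate 1 or Mock replicate 2.

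Ddx4, the germline RNA helicase also called Vasa, stood at 8.06 and 7.87 with siFip1-2 and 8.21 and 8.08 with siFip1-3, against 7.87 and 7.55 in Mock. The lowest siRNA array lay level with the higher Mock array, so the groups touched. The difference was 0.34 (SE 0.129, 1.27-fold higher), and all 4 differences within replicates were positive (0.19 to 0.53). It was 0.50 without Mock replicate 1 and 0.19 without Mock replicate 2. Mael, which acts in the small RNA defence against transposons, was at 7.67 and 7.73 with siFip1-2 and 7.49 and 7.67 with siFip1-3, against 7.69 and 7.95 in Mock. Its groups overlapped, with a difference of -0.18 (SE 0.122, 95% interval -0.46 to 0.09), or -0.31 without Mock replicate 1 and -0.05 without Mock replicate 2.

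Stra8, the factor that retinoic acid induces at the entry into meiosis, differed between arrays of the same group by 0.61 to 1.40 on the log2 scale. It was at 7.01 and 8.10 with siFip1-2 and 5.98 and 7.38 with siFip1-3, against 6.56 and 7.17 in Mock. The groups overlapped, and siFip1-3 replicate 1 was the lowest array. The difference was 0.25 (SE 0.411, 95% interval -0.69 to 1.19), and it was -0.10 at the lowest of the alternatives. Tex101, a surface glycoprotein of germ cells that sperm need for fertility, was at 4.30 and 4.22 with siFip1-2 and 4.15 and 4.25 with siFip1-3, against 4.39 and 4.72 in Mock. The arrays did not overlap, although 2 siRNA arrays were below the 25th percentile. The difference of Tex101 was -0.32 (SE 0.126, 1.25-fold lower), or -0.49 without Mock replicate 1 and -0.15 without Mock replicate 2.

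**Figure D2:**
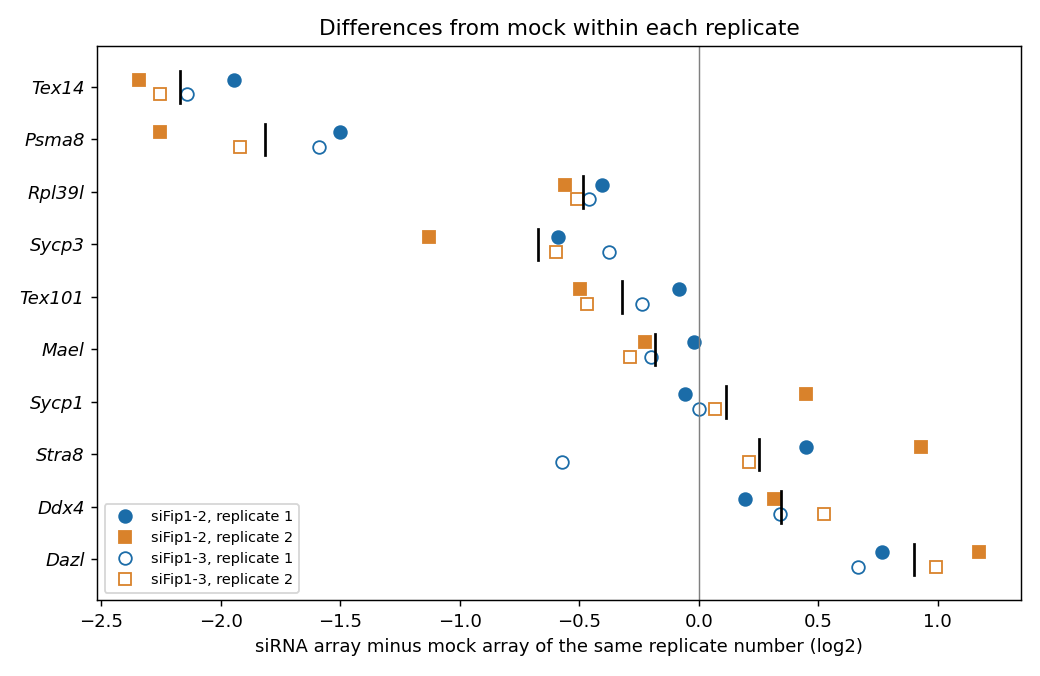
Log2 difference of each siRNA array from its same-numbered Mock array, for the 10 genes down the page, with filled marks for siFip1-2, open marks for siFip1-3, circles for replicate 1, squares for replicate 2 and a bar at the difference of the group means. The marks of Tex14 and Psma8 all lie below -1.4 and those of Dazl all above 0.6, while those of Stra8 and Sycp1 lie on both sides of 0.

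A comparison that leaves out the Mock arrays is that between the siRNAs. For siFip1-2 minus siFip1-3, limma called 0% of 15267 genes and 0 of the 10, while 644 genes (4.22%) had an unadjusted p under 0.05. With the replicate number as a block, limma again called 0 genes, but 1309 of the 15267 had an unadjusted p under 0.05. The difference was 0.05 for Tex14 (95% interval -0.82 to 0.93), -0.12 for Psma8 (-0.57 to 0.32), 0.00 for Rpl39l (-0.19 to 0.20) and 0.14 for Dazl (-0.47 to 0.75). These intervals for Tex14 and Dazl still allow a difference of more than 1.5-fold, so they do not show that the siRNAs act alike. Sycp3 was lower with siFip1-2 by -0.37 (-0.73 to -0.02, limma adjusted p = 0.984, unadjusted 0.0412). Stra8 had the second largest positive difference of all genes at 0.87 (SE 0.475), and with an interval of -0.22 to 1.96 it did not pass (limma adjusted p = 0.984). The SEs and intervals of this comparison come from the fit without the block. The step between replicates, large in Stra8, Tex14 and Dazl, therefore counts as spread in them. Intervals with the block are not given here, so the precision for these genes is not settled.

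The other comparison is that of replicate 2 with replicate 1. The genes were chosen with earlier results of these arrays in view. Whether that choice bears on the p-values of the 10 genes between siRNAs or replicates was not tested. The titles of same-numbered arrays end alike in all 3 groups, and their deviations from the group means correlated at 0.281 to 0.443 over genes. In a model of group and replicate number, 3 of the 10 genes were higher in replicate 2 (Stra8, Tex14 and Dazl) and 0 lower, where limma called 2.5% of all genes, 1.05% higher and 1.45% lower. At an unadjusted p under 0.05, 4 of the 10 were called, the fourth being Ddx4, which was lower, where 17.7% of all genes were.

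Stra8 was 2.05-fold higher in replicate 2 (log2 difference 1.03, SE 0.140, limma adjusted p = 0.00879), the second largest positive difference of all genes. It was higher by 1.09 with siFip1-2 and 1.40 with siFip1-3, and by 0.61 in Mock. Tex14 was 1.78-fold higher (0.83, SE 0.115, limma adjusted p = 0.00909), by 0.60 with siFip1-2 and 0.89 with siFip1-3, and by 1.00 in Mock. The difference of Tex14 between replicates was thus smaller than that between siRNA and Mock in every group. Dazl was 1.45-fold higher (0.54, SE 0.103, limma adjusted p = 0.0331), by 0.70 with siFip1-2 and 0.62 with siFip1-3, and by 0.29 in Mock. The calls of Stra8 and Tex14 held without any 1 array (limma adjusted p up to 0.0430 and 0.0400), while that of Dazl ended without any 1 of the 4 siRNA arrays (0.0572 to 0.103) and without a trend of the prior variance (0.0560).

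**Figure D3:**
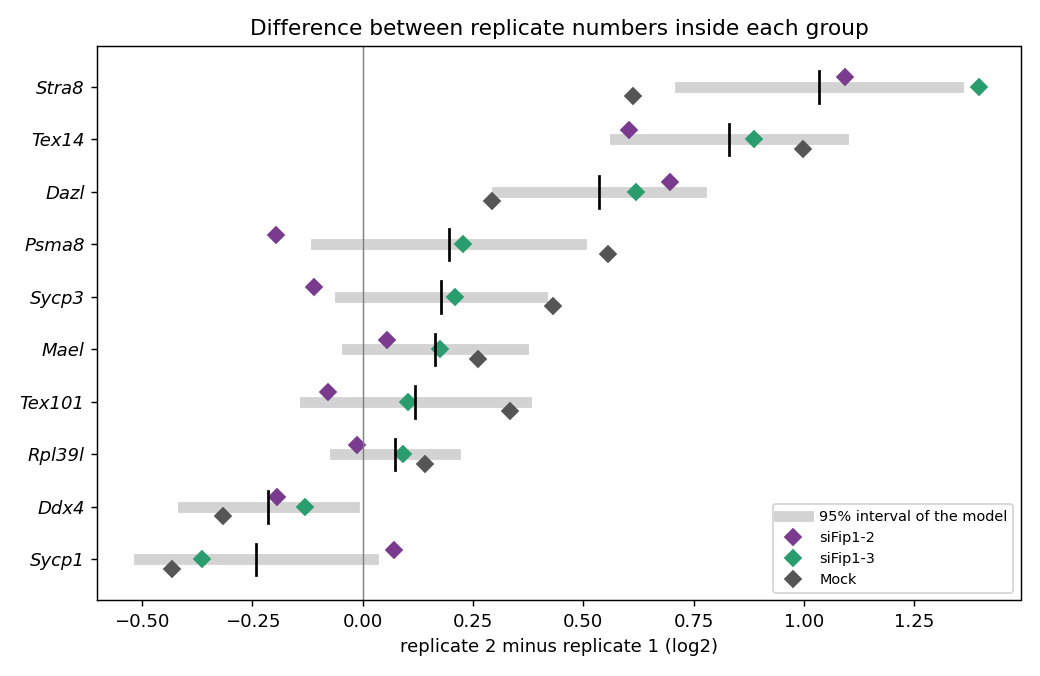
Log2 difference of replicate 2 from replicate 1 inside each of the 3 groups (diamonds), with a bar at the estimate of the model and a grey band for its 95% interval, for the 10 genes sorted by the estimate. In Stra8, Tex14 and Dazl all 3 groups lie above 0 and the band excludes it, and in Ddx4, which did not pass the adjusted test, all 3 lie below 0.

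Of 191 measured genes in 11 related lists, 8 were higher in replicate 2 and 5 lower (6.81%), beside 2.5% of all genes, 1.05% higher and 1.45% lower. Those named here were chosen after their values were seen. Tuba3a, an alpha tubulin, was higher by 0.88 (limma adjusted p = 0.0117), Cyct, the testis cytochrome c, by 0.79 (limma adjusted p = 0.00646), Rec114, needed for meiotic DNA breaks, by 0.66 (limma adjusted p = 0.0106) and Sohlh2, a germ cell transcription factor, by 0.64 (limma adjusted p = 0.00963). Lower in replicate 2 were Lin28a (-0.62, limma adjusted p = 0.0186), Tex15 of the recombination list (-0.53, limma adjusted p = 0.0273) and Crabp2 (-0.48, limma adjusted p = 0.0459). So were the silencers Dnmt3l (-0.46, limma adjusted p = 0.0266) and Dnmt3b, a DNA methyltransferase (-0.62, limma adjusted p = 0.00138). Dnmt3b was at 12.1 and 11.4 with siFip1-2 and 12.2 and 11.6 with siFip1-3, against 12.4 and 11.8 in Mock (replicates 1 and 2). Of the 10 markers of differentiating cells, Sox17 and Gata6 were higher in replicate 2 and Krt8 and Fgf5 lower, by 0.65, 0.64, -0.96 and -0.84. The part of these shifts in the values of Stra8, Tex14 and Dazl was not tested.

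The wider germline programme was read in 11 lists that leave out the 10 genes. Of 233 genes listed, 191 were measured. For the mean of both siRNAs minus Mock, 18 of them fell and 3 rose, which is 11.0% of the lists beside 10.3% of all genes tested, with a median difference of -0.04 beside -0.00. Without the block, the share called was thus near that of all genes. The split was 3 higher and 18 lower of 191 beside 4.15% and 6.19% of all genes. An unadjusted p under 0.05 was found for 60 of the 191, beside 24.35% of all genes. With the replicate number as a block 26.2% of the 191 were called, 14 higher and 36 lower, beside 20.2% of all genes, 8.43% higher and 11.7% lower. The block counts of the lists below stand beside the same shares. Each of the 21 called without the block kept the same sign in all 4 differences within replicates. For all of them but Ifitm3 the siRNA and Mock arrays did not overlap, which by itself fixes that sign. Only Syce2 and Tex11 kept their call without any 1 array, and the other 19 lost it without at least 1, 17 of them without Mock replicate 2 and 14 without Mock replicate 1.

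**Figure D4:**
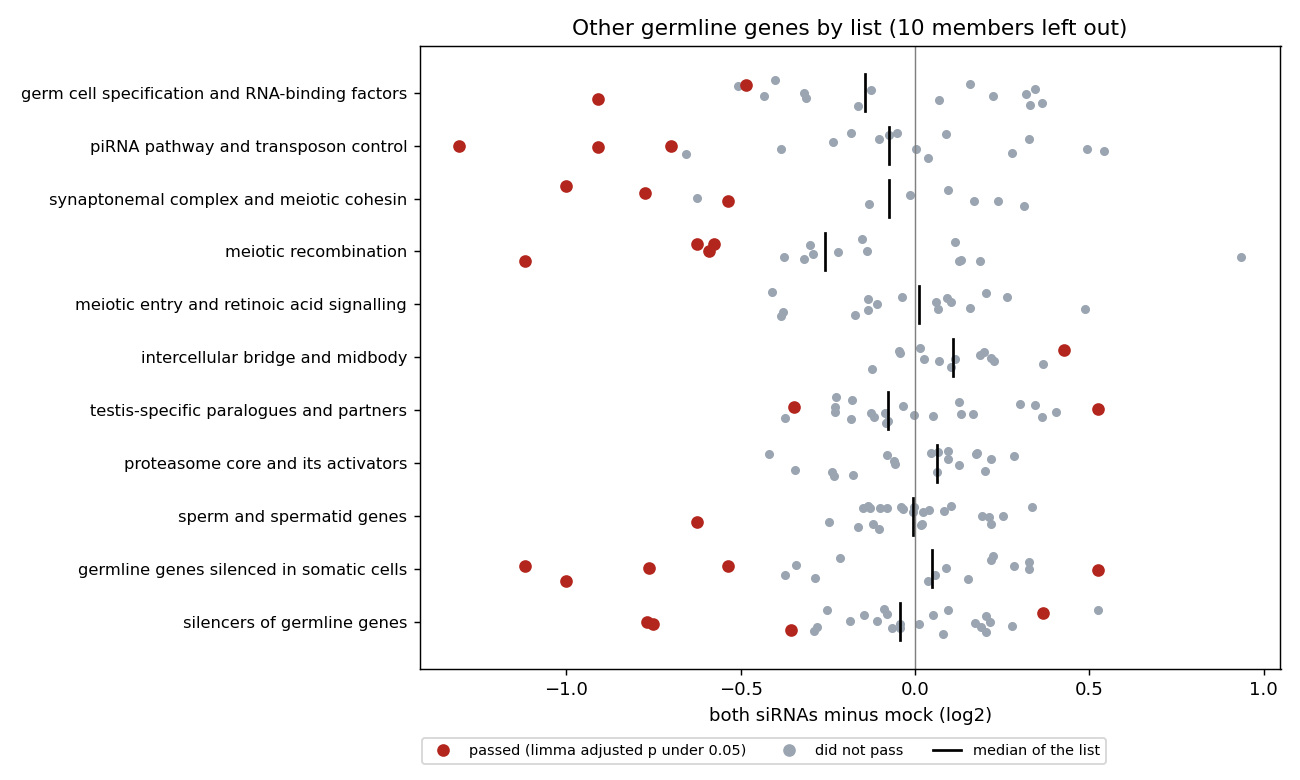
Log2 difference of both siRNAs minus Mock for the measured genes of the 11 lists, the 10 genes left out, with red points for those that passed the limma test, grey points for the others and a bar at the median of each list. The red points of the piRNA, synaptonemal complex and recombination lists all lie below 0. A gene in several lists is drawn in each.

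In the list of meiotic recombination, 4 of 16 measured genes fell and 0 rose, beside 6.19% and 4.15% of all genes, with a median of -0.26. An unadjusted p under 0.05 was found for 7, beside 24.35% of all genes. Tex11, an X-linked factor of crossover formation, was at 3.68 and 3.62 with siFip1-2 and 3.65 and 3.82 with siFip1-3, against 4.53 and 5.09 in Mock. It fell by 1.12 on the log2 scale (SE 0.157, limma adjusted p = 0.00467), but all its siRNA values lay below the 25th percentile, where without detection calls the size of the difference is uncertain. Meiob, a single-strand DNA binding protein, fell by 0.62 (limma adjusted p = 0.00705), at mean levels of 3.24 with siRNA and 3.86 in Mock that are both under the 25th percentile, so its expression is uncertain. Mei4, which acts in forming meiotic DNA breaks, fell by 0.59 (limma adjusted p = 0.0298), and Mnd1, a partner of the recombinase Dmc1, fell by 0.58 (limma adjusted p = 0.00839). In the same list Rec114, named after its values were seen, had a difference of 0.94 (SE 0.265, limma adjusted p = 0.0605, or 0.000374 with the block) and was above both Mock arrays on every siRNA array. With the block 1 gene was higher and 7 lower.

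In the list of the synaptonemal complex and meiotic cohesin, 3 of 10 measured genes fell and 0 rose, beside 6.19% and 4.15% of all genes. An unadjusted p under 0.05 was found for 5, beside 24.35% of all genes. Syce2, a central element protein, was at 10.6 and 10.5 with siFip1-2 and 10.6 and 10.7 with siFip1-3, against 11.2 and 11.5 in Mock. It fell by 0.78 (SE 0.100, 1.71-fold lower, limma adjusted p = 0.00336). The meiotic cohesin subunits Stag3 and Smc1b fell by 1.00 and 0.54 (limma adjusted p = 0.0334 and 0.0263), while Syce3 differed by -0.62, short of the threshold (0.0785 as limma adjusted p, and 0.0386 in the blocked fit).

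In the list of the piRNA pathway, which silences transposons with small RNAs, 3 of 17 measured genes fell and 0 rose, beside 6.19% and 4.15% of all genes. An unadjusted p under 0.05 was found for 9, beside 24.35% of all genes. The Tudor domain gene Tdrd12 was at 7.76 and 7.08 with siFip1-2 and 7.66 and 7.27 with siFip1-3, against 8.79 and 8.71 in Mock. It fell 2.48-fold (-1.31, SE 0.194, limma adjusted p = 0.00565). Tdrkh and Rnf17, which also carry Tudor domains, fell by 0.91 and 0.70 (limma adjusted p = 0.0284 and 0.0153). In replicate 2 Tdrkh was at 4.24 with siFip1-2 and 3.82 with siFip1-3, below the 25th percentile of those arrays. The size of its difference is therefore uncertain. Gtsf1 differed by -0.66, short of the threshold (0.0665 as limma adjusted p, and 0.00402 in the blocked fit). With the block 2 genes were higher and 5 lower.

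Among germ cell specification and RNA-binding factors, 2 of 16 fell and 0 rose, beside 6.19% and 4.15% of all genes. An unadjusted p under 0.05 was found for 7, beside 24.35% of all genes. Dppa3, a maternal factor also found in primordial germ cells, fell by 0.91 (limma adjusted p = 0.00844). Ifitm3, a membrane protein of early germ cells, fell by 0.49 (limma adjusted p = 0.0199), with siFip1-3 replicate 1 (12.1) level with Mock replicate 2 (12.1). Prdm1, a repressor that specifies germ cells, had a difference of -0.51 (limma adjusted p = 0.170, or 0.0105 with the block), and the RNA-binding protein Lin28a one of -0.43 (0.360, or 0.0229 with the block). With the block 2 were higher and 7 lower.

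The next lists hold genes linked to the roles of Stra8, Tex14 and Psma8, and their counts stand beside 10.3% of all genes called, or 20.2% with the block. At an unadjusted p under 0.05 the share of all genes was 24.35%. In the list of meiotic entry and retinoic acid signalling, 0 of 16 passed in limma, with 5 at an unadjusted p under 0.05 and 3 lower with the block. Cyp26a1, the retinoic acid hydroxylase, had a difference of 0.49 (limma adjusted p = 0.107), the receptor Rara -0.41 (0.170, or 0.0340 with the block), Ythdc2 -0.39 (0.0773, or 0.0315) and the binding protein Crabp1 -0.38 (0.117, or 0.0287). In the list of the intercellular bridge and midbody, 1 of 14 passed: Chmp4b, an ESCRT-III subunit of abscission, rose by 0.43 (limma adjusted p = 0.0276). Cep55, the midbody protein that Tex14 binds, had a difference of 0.37 (limma adjusted p = 0.194, or 0.00879 with the block), Kif23 one of 0.23 and Prc1 one of 0.22. In the proteasome list 0 of 19 passed in limma, with 5 at an unadjusted p under 0.05 and 2 higher and 2 lower with the block. Its largest differences were those of the activator subunits Psme3 (-0.42, limma adjusted p = 0.0537, or 0.0115 with the block) and Psme1 (0.28, 0.0911, or 0.0362), the immunoproteasome subunit Psmb9 (-0.34) and the assembly chaperone Psmg2 (-0.24, limma adjusted p = 0.110, or 0.0465).

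Among testis-specific paralogues and their partners, 1 of 23 measured genes rose and 1 fell, beside 4.15% and 6.19% of all genes. Taf7l, a germ cell paralogue of a TFIID subunit, rose by 0.52 (limma adjusted p = 0.0325) and Ldhc, the testis lactate dehydrogenase, fell by 0.35 (limma adjusted p = 0.0447), with values under the 25th percentile on every array, so that its expression is uncertain. Hspa2, a heat shock protein of spermatocytes, had a difference of 0.41 (limma adjusted p = 0.186, or 0.0409 with the block) and Tuba3a one of -0.37. With the block 3 were higher and 1 lower. Among sperm and spermatid genes 1 of 25 fell, Odf2 by 0.63 (limma adjusted p = 0.0181), and 0 rose, while Ace (0.33), Acrv1 (0.25) and Spem1 (-0.25) did not pass. An unadjusted p under 0.05 was found for 3 of these 25, beside 24.35% of all genes. Odf2 also serves at centrosomes of other cells.

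The list of genes known to be silenced outside the germline shares members with the lists above. Of its 18 measured genes, 1 rose (Taf7l) and 4 fell (Tex11, Stag3, Smc1b and Stk31), beside 4.15% and 6.19% of all genes. Of these Stk31 alone was not already named. Stk31, a Tudor domain kinase, fell by 0.76 (limma adjusted p = 0.0109), while Terb1 (-0.34), Mov10l1 (0.33) and Slc25a31 (0.33) did not pass. Not all genes of this list were low in these cells. In Mock, Stag3 was at 6.64 and 7.52, Stk31 at 6.92 and 6.75 and Pnldc1 at 8.54 and 8.27, above the array medians. Tex11 and Smc1b were below those medians. Of 26 measured genes that silence the programme, 1 rose and 3 fell, beside the same shares of all genes. E2f6, whose motif was searched above, rose by 0.37 (SE 0.0958, limma adjusted p = 0.0471). Its dimer partner Tfdp1 fell by 0.36 (limma adjusted p = 0.0488), Atf7ip, a partner of the methyltransferase Setdb1, by 0.77 (limma adjusted p = 0.0124) and Dnmt3l, the cofactor of the de novo DNA methyltransferases, by 0.75 (limma adjusted p = 0.0438). With the block 2 were higher and 5 lower. E2f6, Taf7l and Ldhc lost their calls whichever of the 6 arrays was left out.

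Over the 6 arrays the genes most like Tex14 were Prelid2 (Pearson r = 0.997), Hspb6 (0.995) and Acss2 (0.994), out of 466 genes with a standard deviation of at least 0.5. Those most like Psma8 were Grtp1 (0.997), Fam162a (0.996) and Tango6 (0.996). These values describe arrays that fall into siRNA and Mock groups, and were computed across both. Prelid2 shared the step between replicates with Tex14 in Mock, at 9.17 and 9.83, and stood at 8.20 and 8.42 with siFip1-2 and 8.01 and 8.45 with siFip1-3 (replicates 1 and 2).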

How the data were processed

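The authors deposited log2 values of 16556 probe sets on 6 arrays, which the submitters' processing notes credit to RMA. Its version and settings are not given in the sources used, and probe positions were not used. A platform annotation named 1 gene for 15270 probe sets and several genes for 0, and 1286 stayed unnamed. All gene numbers were found in a RefSeq table of GRCm38.p6, and the brightest probe set of a gene was kept (15267 genes). Detection calls were not analysed here, and precision is limited by how few arrays there are.

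All genes and 6 arrays entered 1 model of 3 group means in limma 3.58.1 (R 4.3.3), with a prior variance trend, two-sided p-values and Benjamini-Hochberg adjustment over 15267 genes. Replicate 2 minus replicate 1 came from a model of group and replicate number. Since the numbers pair the samples (correlations of 0.281 to 0.443), a fit with the replicate block stands beside results that it changes. Simulated data tested the model, first with each gene's own residual spread, where no change at the smallest simulated fold was recovered, and then, chosen after seeing that, with limma's moderated spread, where most were recovered except between the siRNAs. The genes, lists and motifs were chosen with earlier results of these data known. Up to 4 further genes of a list are named, those past the threshold and with larger differences first, and up to 3 genes most like Tex14 and Psma8. Alternatives were the block, no variance trend, a filter at the 25th percentile, repeated quantile normalization, median centring, all probe sets, the mean of probe sets and leaving out each array. Scanner files were not analysed here, so no other background correction was tried.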

Additional observations from a re-analysis of the deposited data

How the results depend on the processing

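Across 12 or 13 alternatives per gene, no called difference of the 10 genes from Mock changed sign. For Tex14, Psma8, Rpl39l, Sycp3 and Dazl the siRNA and Mock arrays did not overlap. Leaving out 1 array could therefore not have changed their sign, and nothing is read from its constancy. The difference for both siRNAs ran from -2.67 to -1.67 for Tex14, -2.09 to -1.54 for Psma8, -0.55 to -0.41 for Rpl39l, -0.89 to -0.46 for Sycp3 and 0.72 to 1.07 for Dazl. It ran from 0.19 to 0.50 for Ddx4, -0.31 to -0.05 for Mael and -0.49 to -0.15 for Tex101. Those of Stra8 (-0.10 to 0.60) and Sycp1 (-0.10 to 0.33) took both signs and were never called. The extremes came from leaving out 1 array. With the replicate block, 3080 genes were called for both siRNAs (1578 without it), 2624 for siFip1-2 (1057) and 2156 for siFip1-3 (877), with 14 related genes higher (3) and 36 lower (18). Among the 10, the block added a call for Ddx4. Without a variance trend, 227 genes differed between the replicate numbers (382 with it), and without genes under the 25th percentile 5 related genes were higher. Leaving out 1 array gave 305 to 1368 genes for both siRNAs, 66 to 1094 for siFip1-2, 93 to 573 for siFip1-3 and 193 to 317 between replicate numbers, with 0 to 4 related genes higher and 4 to 16 lower. The lowest count for both siRNAs came without Mock replicate 2. The siRNAs differed for 0 genes under every alternative run. The causes were not tested, beyond the fewer arrays when 1 was left out. Without Mock replicate 2, Psma8 alone of the 10 was called. The call of Sycp3 also ended without siFip1-2 replicate 2, and that of Dazl under 5 of the alternatives. Sycp1 and Tex101 lie near the 25th percentile of the arrays, which limits them.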
